A study of Homo sapiens with 9 samples.

Results

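The NFAT transcription factors and calcineurin, the phosphatase that controls most of them, were followed as 10 mRNAs in the Jurkat line (Clone E6-1), T lymphoblasts grown from a human leukaemia. The genes were NFATC1, NFATC2, NFATC3, NFAT5, RCAN1, PPP3CA, PPP3CB, PPP3CC, PPP3R1 and CABIN1, taken by symbol from a table of 19569 genes, and all 10 were found and passed the filter on low counts that left 12036 genes. Cells were non-activated (0 h), or activated for 5 h or 12 h on plates coated with anti-CD3 antibody, with anti-CD28 antibody in the medium, and each time had 3 libraries numbered as replicates. All 9 libraries came from the same cell line, and no cells were kept without antibodies for 5 h or 12 h, so activation and time in culture cannot be told apart. Library totals ran from 4222258 to 9359187 counts, and the 10 genes had between 69 and 1953 counts in a library. Of 12 T-cell marker genes all 12 averaged over 1 CPM (the usual depth-scaled count, here on TMM-adjusted library sizes), with sums of 5890 to 6910 CPM at 0 h, 6080 to 7100 CPM at 5 h and 5890 to 6820 CPM at 12 h. Of 12 markers of other lineages, HBB and EPCAM had no count and 4 averaged over 1 CPM, with sums of 363 to 438 CPM at 0 h, 238 to 287 CPM at 5 h and 321 to 384 CPM at 12 h. Most of that sum was CD79A, a chain of the B-cell receptor complex, with 177 CPM at 0 h, 101 at 5 h and 142 at 12 h, and PECAM1, an adhesion molecule, with 212, 152 and 211 CPM at those times. Their part in the results was not tested.

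Calcineurin is a calcium- and calmodulin-dependent phosphatase made of a catalytic A subunit, encoded by PPP3CA, PPP3CB or PPP3CC, and a calcium-binding regulatory B subunit, encoded by PPP3R1 in most tissues. When the T-cell receptor raises intracellular calcium, calcineurin removes phosphates from NFATC1, NFATC2 and NFATC3, which then enter the nucleus and act with AP-1 at cytokine genes such as IL2. It is the target of the immunosuppressants cyclosporin A and tacrolimus. NFAT5 shares the DNA-binding domain of the family but lacks the calcineurin docking region and is known for its response to osmotic stress. RCAN1 and CABIN1 bind calcineurin and can inhibit it, and CABIN1 also represses MEF2 factors and belongs to the HIRA histone chaperone complex.

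The core of the DNA site bound by NFAT factors reads GGAAA, or TTTCC when it lies on the opposite strand. RefSeq promoter windows on GRCh38.p14, from 250 bases before to 50 bases after a transcription start, were matched by symbol for 6 of the 10 genes, all but NFAT5, PPP3CA, PPP3CB and PPP3CC, and these had 13 windows. Of these, 7 (53.8%) hold at least 1 match, against 61.2% of all 35116 windows of this length. The windows below belong to NFATC1 and RCAN1. NFATC1 had the largest rise of the 10 mRNAs against 0 h, and RCAN1 was the only one of them to fall against 0 h. Each NFATC1 window is printed, while of the 6 RCAN1 windows only start 4, which has the most matches, is printed. Both NFATC1 starts hold 1 match each. Of 6 RCAN1 starts, the 3 upstream ones hold no match, while the fourth, which lies inside the gene, holds 5, and starts 5 and 6 hold 1 each. At least 5 matches are reached by 0.74% of all windows. That share is for any window, while RCAN1 start 4 has the most matches of the 13. Transcripts from an internal RCAN1 start are known from other cell types as targets of calcineurin and NFAT. Capitals mark GGAAA or TTTCC, both strands were searched, and a match is a run of letters, not evidence of binding.
NFATC1 start 1, chr18:79395680-79395979, plus strand: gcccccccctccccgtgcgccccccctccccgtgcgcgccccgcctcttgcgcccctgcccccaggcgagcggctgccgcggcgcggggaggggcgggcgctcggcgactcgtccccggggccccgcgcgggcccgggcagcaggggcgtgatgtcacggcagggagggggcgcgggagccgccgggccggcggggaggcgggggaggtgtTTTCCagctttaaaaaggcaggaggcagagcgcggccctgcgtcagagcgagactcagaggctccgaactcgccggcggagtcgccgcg
NFATC1 start 2, chr18:79400049-79400348, plus strand: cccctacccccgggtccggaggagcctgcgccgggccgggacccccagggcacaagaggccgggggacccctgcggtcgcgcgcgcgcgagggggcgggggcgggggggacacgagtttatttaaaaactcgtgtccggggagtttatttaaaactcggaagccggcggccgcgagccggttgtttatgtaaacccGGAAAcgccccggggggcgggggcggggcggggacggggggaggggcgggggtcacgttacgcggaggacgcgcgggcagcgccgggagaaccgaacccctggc
RCAN1 start 4, chr21:34526773-34527072, minus strand: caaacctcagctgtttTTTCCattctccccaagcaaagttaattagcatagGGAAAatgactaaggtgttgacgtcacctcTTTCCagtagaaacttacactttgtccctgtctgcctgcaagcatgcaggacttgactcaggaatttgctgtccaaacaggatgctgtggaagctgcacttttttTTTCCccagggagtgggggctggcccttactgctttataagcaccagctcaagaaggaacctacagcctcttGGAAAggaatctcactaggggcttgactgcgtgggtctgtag

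**Figure D1:**
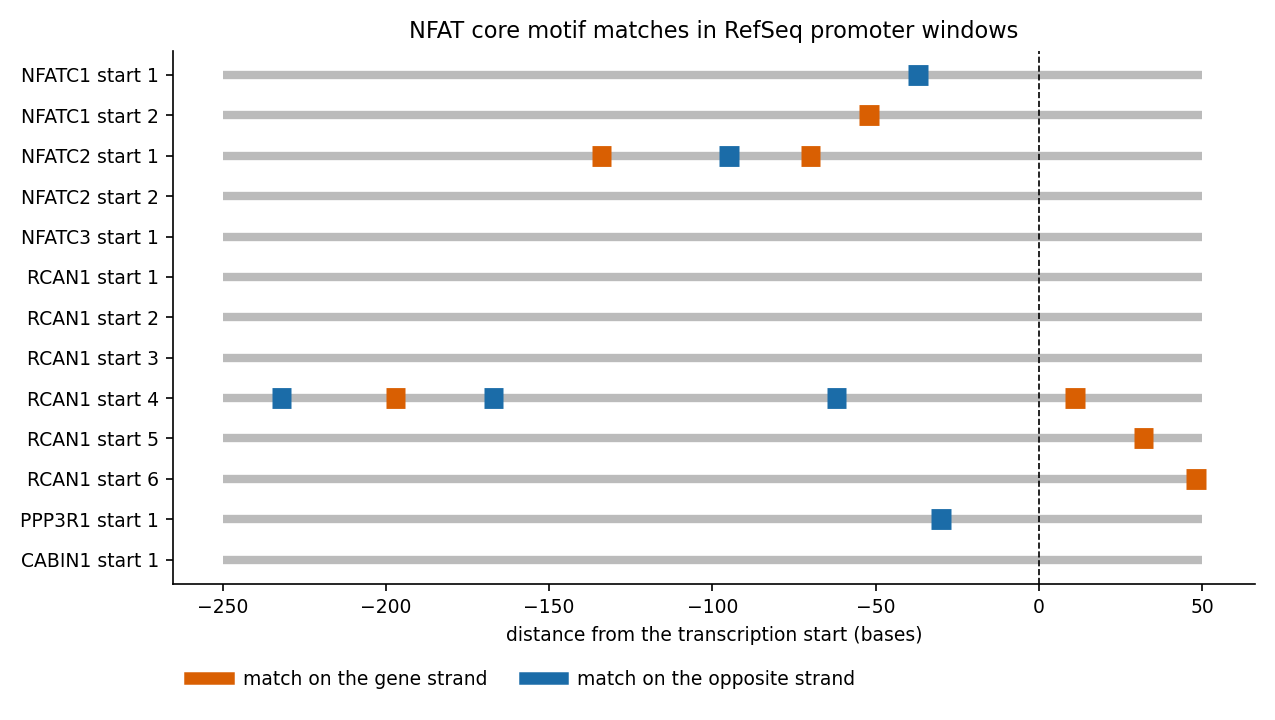
Matches to the NFAT core motif along the 13 RefSeq promoter windows of NFATC1, NFATC2, NFATC3, RCAN1, PPP3R1 and CABIN1, against the distance in bases from the transcription start (dashed line). Orange blocks lie on the strand of the gene and blue blocks on the opposite strand. RCAN1 start 4 holds 5 matches and NFATC2 start 1 holds 3.

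At 5 h against 0 h, 5 of the 10 mRNAs rose (NFATC1, NFAT5, PPP3CA, NFATC2 and PPP3CB) and 1 fell (RCAN1). This was at an adjusted p under 0.05 in edgeR's quasi-likelihood test, with Benjamini-Hochberg adjustment over all 12036 genes. That test called 24.9% of all tested genes higher and 24.8% lower at 5 h. At 12 h against 0 h the count was again 5 higher (NFAT5, NFATC2, PPP3CC, CABIN1 and PPP3CB) and 1 lower (RCAN1), against 26.3% and 24.8% of all genes. Between 12 h and 5 h, 2 were higher (PPP3CC and CABIN1) and 3 lower (NFATC1, PPP3CA and PPP3R1) at 12 h, against 18.1% and 18% of all genes. With about as many genes called overall as not, 6 calls in 10 are near the share of all genes called at 5 h (49.7%) and at 12 h (51.1%). At least 2-fold called changes were 3 higher (NFATC1, NFAT5 and PPP3CA) and 0 lower at 5 h, against 5.51% and 6.43% of all genes, and 1 higher (NFAT5) and 0 lower at 12 h, against 5.83% and 6.13%. Of 12 h against 5 h, 0 were at least 2-fold higher and 2 (NFATC1 and PPP3CA) lower, against 2.08% and 2.24% of all genes, or 4.32% in either direction. These counts rest on values close to the 2-fold line (log2 of 1). NFAT5 at 12 h was 1.00, and fell short at 0.91, 0.98, 0.99 and 0.99 without 0 h replicate 1, 0 h replicate 3, 12 h replicate 1 and 12 h replicate 3, which leaves 0 such mRNAs at 12 h. PPP3CA at 5 h was 0.92, 0.96 and 0.92 without 0 h replicate 2, 0 h replicate 3 and 5 h replicate 3, and at 12 h against 5 h it was -0.93 and -0.96 without 5 h replicate 3 and 12 h replicate 2. All of these values still passed the test at an adjusted p under 0.05. The median log2 fold change of the 10 mRNAs was 0.27 at 5 h and 0.25 at 12 h, and that of all tested genes was 0.001 and -0.001. Because these are bulk libraries, fewer cells with an mRNA and less of it per cell cannot be told apart. The levels below are CPM, changes are log2 fold changes with standard errors (SE), and adjusted p-values are those of the edgeR test.

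**Figure D2:**
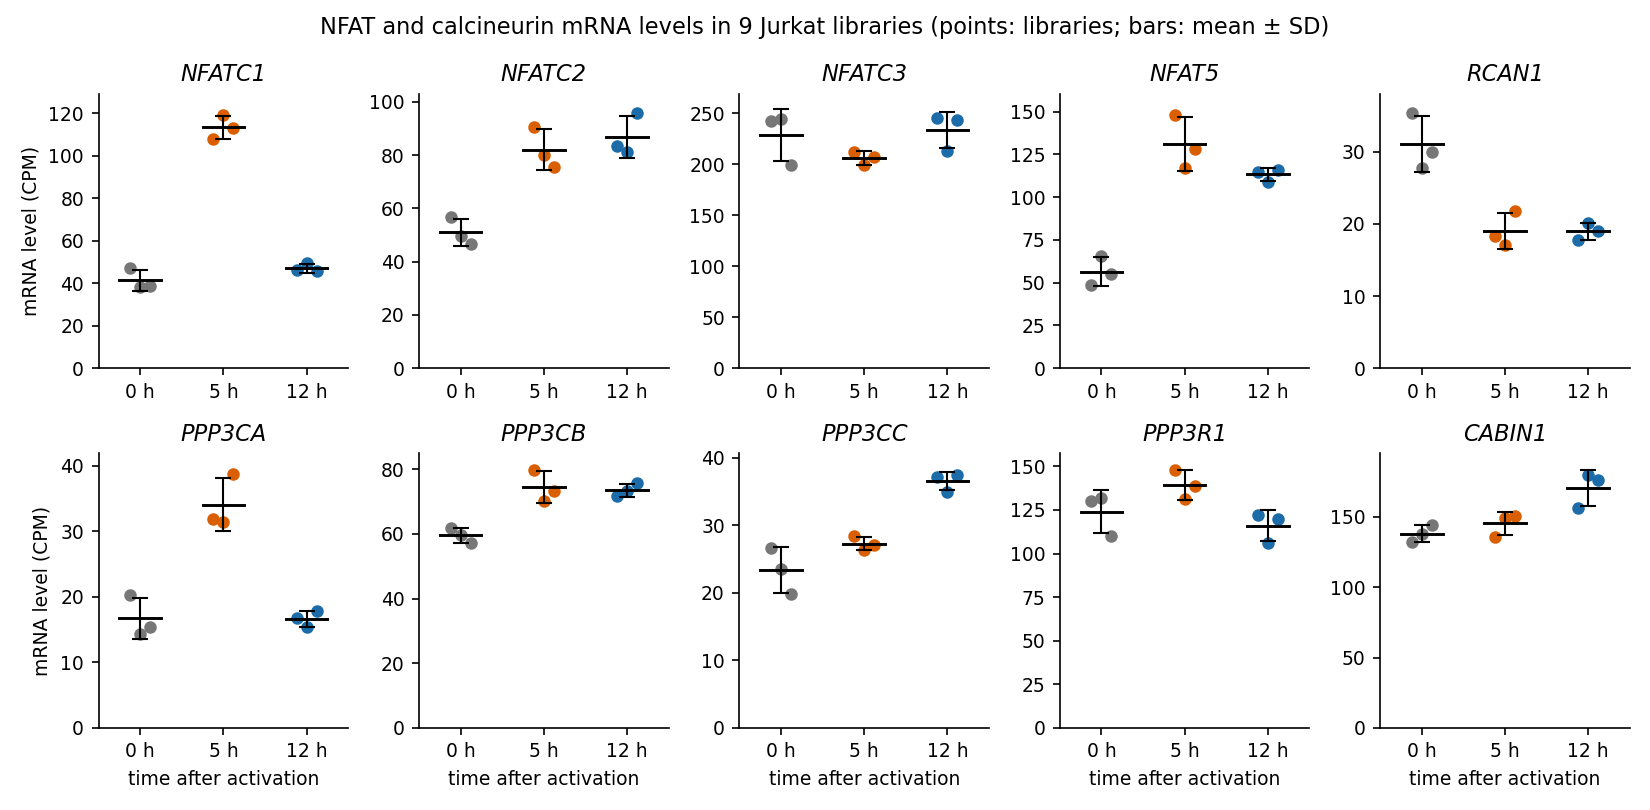
Level of each mRNA (CPM, linear axis from 0) at 0 h, 5 h and 12 h. Points are single libraries, and bars give the mean and SD of 3. NFATC1 and PPP3CA stood high at 5 h only, at 113 ± 5.57 and 34.0 ± 4.06 CPM, while NFATC2 and NFAT5 were high at both later times and RCAN1 was low at both.

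NFATC1, the family member with an inducible promoter in lymphocytes (chromosome 18, 79395856 to 79529325, plus strand, GRCh38), showed a pulse. Its level was 47.2, 38.1 and 38.7 CPM in the 0 h libraries, 108, 119 and 113 CPM at 5 h, and 46.1, 49.6 and 45.6 CPM at 12 h. Every 5 h library lay above every other library, and the 0 h and 12 h libraries overlapped. The rise at 5 h was 2.74-fold (log2 1.45 ± 0.10 SE, adjusted p = 1.94e-10), larger in size than the change of 94% of tested genes. At 12 h the level was below 5 h by a log2 change of -1.26 ± 0.10 SE (adjusted p = 1.23e-08). Against 0 h, 12 h did not pass the test (log2 0.19, 95% interval -0.03 to 0.41, adjusted p = 0.137). That last comparison did pass without 0 h replicate 1, the highest of the 0 h libraries, at log2 0.30 (adjusted p = 0.0298). GENCODE annotates 11 coding transcripts of NFATC1 from 10 start sites, and the counts sum over them.

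NFATC2, a factor already present in resting T cells (chromosome 20, 51386957 to 51562831, minus strand), rose to a lasting level. The libraries had 56.6, 49.5 and 46.8 CPM at 0 h, 90.5, 80.1 and 75.5 CPM at 5 h, and 83.5, 81.1 and 95.7 CPM at 12 h. No library at 0 h reached the lowest of the later times. The log2 change was 0.69 ± 0.11 SE at 5 h (adjusted p = 1.79e-05) and 0.77 ± 0.11 SE at 12 h (adjusted p = 4.69e-06). Between 12 h and 5 h the difference was 0.08 (95% interval -0.13 to 0.29, adjusted p = 0.575).

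NFATC3 (chromosome 16, 68084751 to 68229259, plus strand) was the most abundant of the NFAT mRNAs. It stood at 242, 244 and 199 CPM at 0 h, 212, 199 and 207 CPM at 5 h, and 245, 213 and 243 CPM at 12 h. The 0 h libraries overlapped with both later times, while the lowest 12 h library lay just above the highest 5 h library. The log2 difference of 12 h from 5 h was 0.18 (95% interval -0.02 to 0.38, adjusted p = 0.142). Its log2 change was -0.15 at 5 h (95% interval -0.35 to 0.05, adjusted p = 0.196) and 0.03 at 12 h (-0.17 to 0.23, adjusted p = 0.803). The intervals exclude a 2-fold change in either direction. Annotated antisense exons of AC020978.5 cover 31.8% of the NFATC3 exon sequence, and same-strand exons of AC020978.7 cover 15.7%. The use of strand is not given in the sources used here, so reads of these transcripts cannot be told apart from NFATC3.

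NFAT5, the tonicity-responsive member (chromosome 16, 69565094 to 69704666, plus strand), rose at both later times, by about 2-fold. It had 48.8, 65.9 and 54.9 CPM at 0 h, 148, 117 and 128 CPM at 5 h, and 115, 109 and 116 CPM at 12 h. The 0 h libraries lay well below all later ones. The rise was 2.32-fold at 5 h (log2 1.21 ± 0.11 SE, adjusted p = 1.40e-08) and 2-fold at 12 h (log2 1.00 ± 0.11 SE, adjusted p = 2.67e-07). The difference between the later times was -0.21 (95% interval -0.43 to 0.01, adjusted p = 0.135). Exons of AC012321.1 on the same strand overlap 9.68% of the NFAT5 exon sequence.

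**Figure D3:**
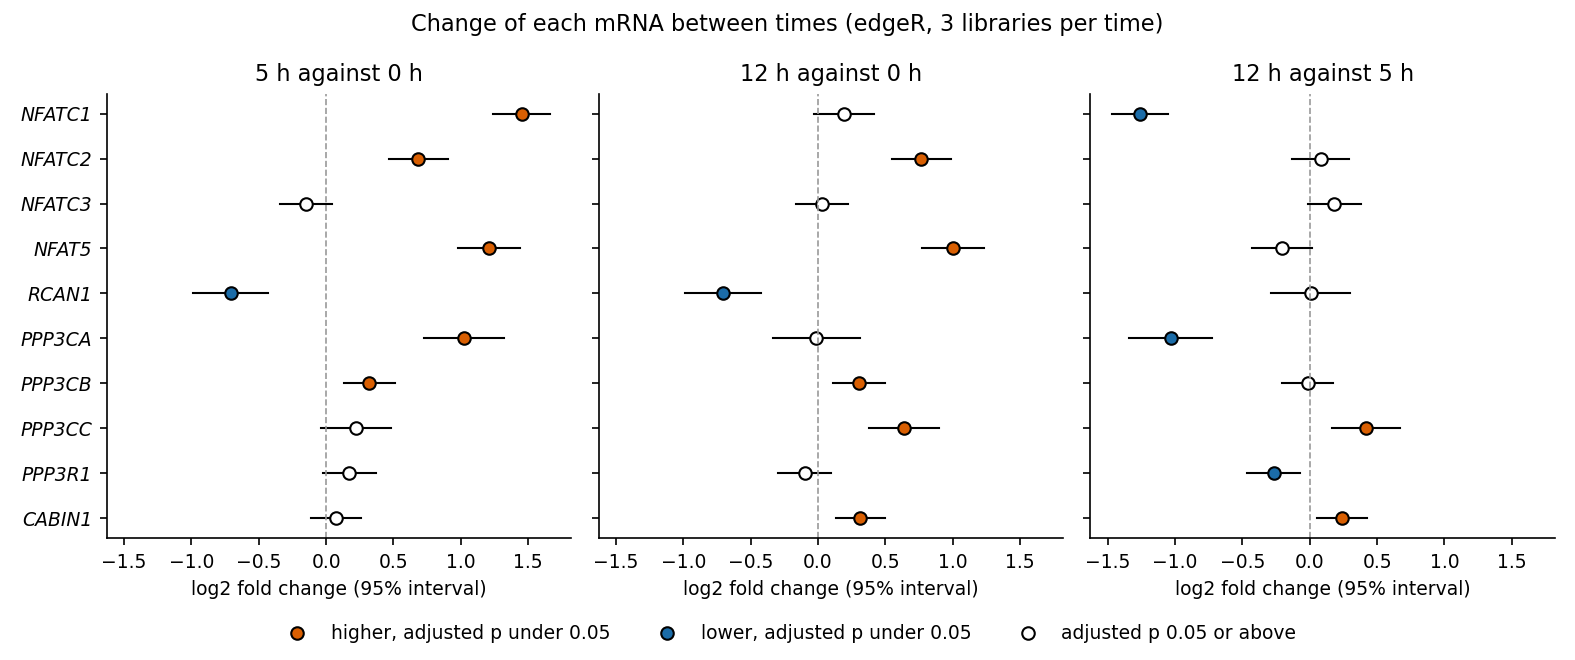
Log2 fold change of each mRNA in the 3 comparisons, with 95% intervals from the edgeR fit; filled points passed an adjusted p of 0.05. NFATC1 and PPP3CA were higher at 5 h against 0 h (1.45 and 1.02) and lower at 12 h against 5 h (-1.26 and -1.03), and RCAN1 was lower in both comparisons with 0 h.

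The calcineurin catalytic subunits differed in course. PPP3CA, which encodes the alpha isoform (chromosome 4, 101023409 to 101348278, minus strand), had 20.3, 14.4 and 15.4 CPM at 0 h, 31.9, 31.5 and 38.7 CPM at 5 h, and 16.8, 15.4 and 17.8 CPM at 12 h. As with NFATC1, all 5 h libraries stood above the others and the 0 h and 12 h libraries overlapped. The rise at 5 h was 2.03-fold (log2 1.02 ± 0.14 SE, adjusted p = 5.61e-06), and 12 h was below 5 h by a log2 change of -1.03 ± 0.15 SE (adjusted p = 1.93e-05). At 12 h against 0 h the log2 change was -0.01 (95% interval -0.34 to 0.31, adjusted p = 0.952).

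PPP3CB, the beta isoform (chromosome 10, 73436428 to 73496024, minus strand), rose by a smaller amount and kept it. It had 61.8, 59.6 and 57.2 CPM at 0 h, 79.8, 70.3 and 73.2 CPM at 5 h, and 71.7, 73.2 and 75.7 CPM at 12 h. The highest 0 h library was below every later one. The log2 change was 0.32 ± 0.09 SE at 5 h (adjusted p = 0.00617) and 0.31 ± 0.09 SE at 12 h (adjusted p = 0.0086). PPP3CB was also the most abundant catalytic subunit at each time on the CPM scale and per kb of exon.

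PPP3CC, the gamma isoform (chromosome 8, 22440819 to 22541142, plus strand), was raised at 12 h. It had 26.7, 23.6 and 19.9 CPM at 0 h, 28.4, 26.4 and 27.1 CPM at 5 h, and 37.1, 35 and 37.5 CPM at 12 h. The 12 h libraries stood above the rest, while 0 h and 5 h overlapped. The log2 change at 12 h was 0.64 ± 0.12 SE against 0 h (adjusted p = 0.000214) and 0.42 ± 0.12 SE against 5 h (adjusted p = 0.0118), and at 5 h against 0 h it was 0.22 (95% interval -0.04 to 0.48, adjusted p = 0.15). Antisense exons of AC037459.2 overlap 10.3% of the PPP3CC exon sequence.

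PPP3R1, the regulatory B subunit (chromosome 2, 68178857 to 68256237, minus strand), had 130, 132 and 110 CPM at 0 h, 148, 131 and 139 CPM at 5 h, and 122, 106 and 120 CPM at 12 h. Neither later time passed the test against 0 h (log2 0.17, 95% interval -0.02 to 0.37, adjusted p = 0.138 at 5 h; log2 -0.10, -0.30 to 0.10, adjusted p = 0.405 at 12 h). The level at 12 h was lower than at 5 h by a log2 change of -0.27 ± 0.10 SE (adjusted p = 0.0321). That call was lost without 5 h replicate 1 (-0.22, adjusted p = 0.129), 5 h replicate 3 (-0.27, adjusted p = 0.0772) or 12 h replicate 2 (-0.20, adjusted p = 0.16). Exons of AC017083.3 on the same strand overlap 13.7% of the PPP3R1 exon sequence, and antisense exons of AC017083.2 overlap 20.8%.

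Among the genes that encode calcineurin inhibitors, RCAN1 fell and CABIN1 rose late. RCAN1 (chromosome 21, 34513142 to 34615142, minus strand) had 35.3, 27.8 and 30.0 CPM at 0 h, 18.3, 17.0 and 21.8 CPM at 5 h, and 17.8, 20.1 and 19.0 CPM at 12 h. All 6 libraries of activated cells lay below all 3 at 0 h, and the 5 h and 12 h libraries overlapped. The log2 change was -0.71 ± 0.13 SE at 5 h (0.612 of the 0 h level, adjusted p = 0.000174) and -0.70 ± 0.14 SE at 12 h (0.614, adjusted p = 0.000198). Between 12 h and 5 h it was 0.006 (95% interval -0.29 to 0.30, adjusted p = 0.977). GENCODE annotates 10 coding transcripts of RCAN1 from 10 start sites, and the fall is that of the sum of their transcripts. That sum takes in the upstream starts and the internal ones, among them the start printed above, and how each moved was not measured.

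CABIN1 (chromosome 22, 24011192 to 24178628, plus strand) had 132, 138 and 144 CPM at 0 h, 136, 149 and 151 CPM at 5 h, and 156, 180 and 176 CPM at 12 h. The 12 h libraries were above all others. The log2 change at 12 h was 0.31 ± 0.09 SE against 0 h (adjusted p = 0.00521), and at 5 h it was 0.07 (95% interval -0.11 to 0.26, adjusted p = 0.507). The difference of 12 h from 5 h passed at 0.24 ± 0.09 SE (adjusted p = 0.0378). It was lost without 5 h replicate 1 (0.19, adjusted p = 0.158), 5 h replicate 2 (0.26, 0.0648), 5 h replicate 3 (0.27, 0.0599), 12 h replicate 2 (0.20, 0.125) or 12 h replicate 3 (0.22, 0.0896).

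Levels of different genes were compared after division by the length of their merged exons (CPM per kb). At 0 h the order ran from PPP3R1 (36.8 ± 3.48 CPM per kb, SD, n = 3) and NFATC3 (25.9 ± 2.87) through CABIN1 (14.7 ± 0.635), PPP3CB (11.7 ± 0.446), PPP3CC (8.07 ± 1.18) and NFATC2 (6.15 ± 0.612) to NFATC1 (4.56 ± 0.560), RCAN1 (4.44 ± 0.550), NFAT5 (3.45 ± 0.528) and PPP3CA (3.20 ± 0.613 CPM per kb). The libraries of the last 4 overlapped between neighbours, so their order is not set by these data. At 5 h the order below CABIN1 (15.5 ± 0.887 CPM per kb) was PPP3CB (14.6 ± 0.963), NFATC1 (12.5 ± 0.614), NFATC2 (9.90 ± 0.927), PPP3CC (9.41 ± 0.360), NFAT5 (7.97 ± 0.958), PPP3CA (6.53 ± 0.778) and RCAN1 (2.73 ± 0.351 CPM per kb). There the libraries of CABIN1 and PPP3CB, of NFATC2 and PPP3CC, and of NFAT5 and PPP3CA overlapped. At 12 h no neighbours overlapped, and NFATC1 was back in the lower part at 5.20 ± 0.240 CPM per kb, below NFAT5 at 6.90 ± 0.239, with PPP3CA at 3.20 ± 0.232 and RCAN1 at 2.71 ± 0.161 CPM per kb. The per-length level of NFATC1 was above that of 37.1% of the 12006 tested genes with a length at 0 h, 67.1% at 5 h and 40.5% at 12 h. The length used matters for genes with many exons: RCAN1 has 6.990 kb of merged exons but 2.816 kb in its longest transcript, and per kb of that transcript it averaged 11 CPM at 0 h and stood at rank 5 of the 10, not 8. Per kb of the longest transcript NFATC1 stood at rank 3 at 5 h (23.5 CPM), not 5, and at 12 h PPP3CA was lowest (3.56 CPM), below RCAN1 (6.73 CPM).

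NFATC1 had its largest share of the NFATC mRNAs at 5 h. NFATC1 made up 13.1%, 11.1% and 13.1% of the summed NFATC1, NFATC2 and NFATC3 CPM per kb at 0 h, 25.4%, 28.9% and 27.6% at 5 h, and 11.8%, 13.9% and 11.4% at 12 h. At 5 h the mean share was 27.3% ± 1.79 against 12.5% ± 1.16 at 0 h, a difference of 14.9 percentage points. The exact two-sided permutation p was 0.1, and no smaller value can come from 3 libraries set against 3 (adjusted over 9 such tests, 0.129). At 12 h against 0 h the difference was -0.09 percentage points (exact p = 1). NFATC3 had the largest share at each time, with 70.7% ± 2.05 at 0 h, 51.1% ± 1.20 at 5 h and 62.8% ± 1.71 at 12 h. NFATC2 had 16.8% ± 0.890 at 0 h, 21.6% ± 1.57 at 5 h and 24.8% ± 1.33 at 12 h. The shares are a description of mRNA levels per length.

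Within the catalytic subunits, PPP3CA made up 15.5%, 12.2% and 14.0% of the summed CPM per kb at 0 h, 19.4%, 20.9% and 23.8% at 5 h, and 10.7%, 10.0% and 10.9% at 12 h, so the 3 times did not overlap. The differences were 7.48 percentage points at 5 h against 0 h, -3.32 at 12 h against 0 h and -10.8 at 12 h against 5 h, each with exact two-sided p = 0.1, the smallest possible. PPP3CC had 35.1% ± 2.14 at 0 h, 30.8% ± 0.721 at 5 h and 41.7% ± 0.733 at 12 h. The 3 catalytic subunits summed to 23.0 ± 2.12 CPM per kb at 0 h, 30.6 ± 1.42 at 5 h and 30.2 ± 0.906 at 12 h, so the means of the later times lay within 1 SD of each other. PPP3R1 over that sum was 1.61 ± 0.109 at 0 h, 1.36 ± 0.0353 at 5 h and 1.14 ± 0.0636 at 12 h.

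RCAN1 over the summed catalytic subunits was 0.200, 0.176 and 0.204 at 0 h, 0.0831, 0.0842 and 0.1 at 5 h, and 0.0846, 0.0977 and 0.0869 at 12 h. The ratio at 5 h was lower than at 0 h by a difference of -0.104, and at 12 h by -0.104, each with exact two-sided p = 0.1 (adjusted over 9 tests, 0.129), the smallest possible p being 0.1. On the longest-transcript scale these differences were -0.188 and -0.189, and without length scaling -0.171 and -0.162, so the size of the ratio rests on the length chosen while its direction was the same in all 3.

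**Figure D4:**
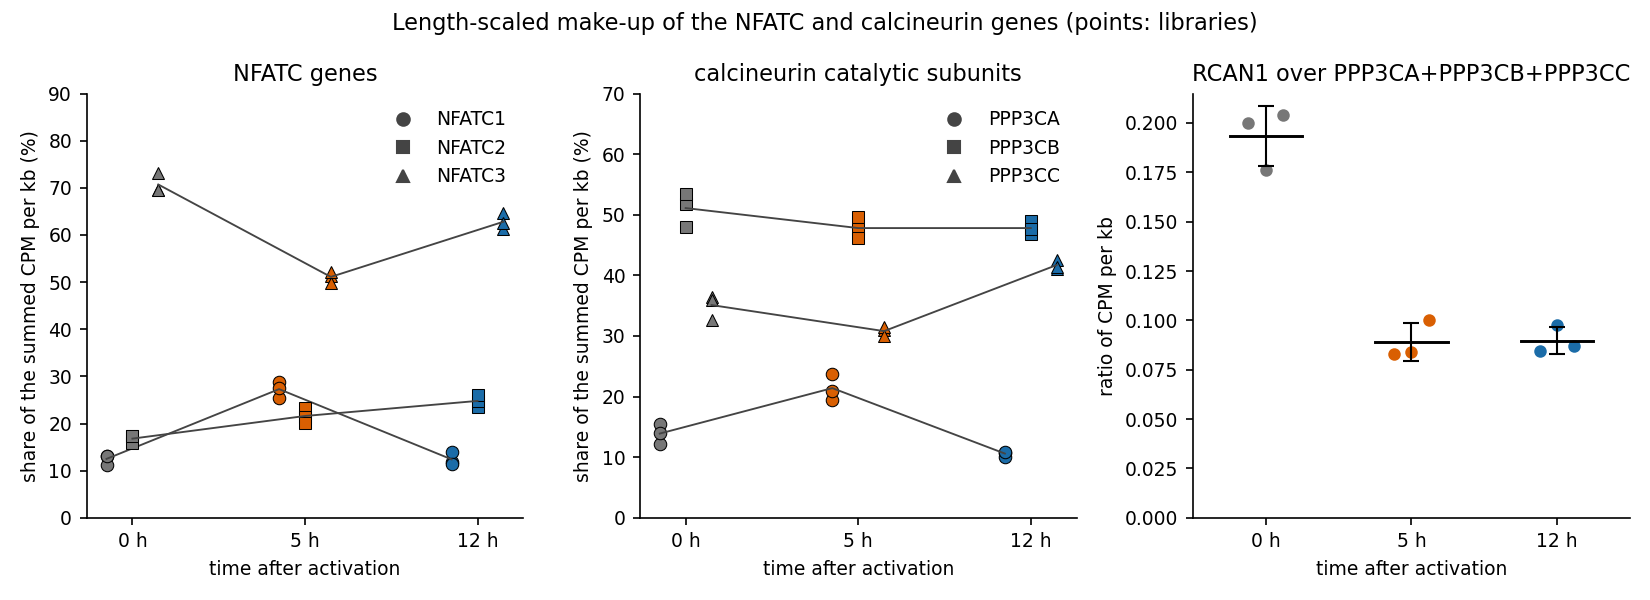
Share of each gene in the summed CPM per kb of NFATC1 to NFATC3 (left) and of the calcineurin catalytic subunits (middle), and the ratio of RCAN1 to the summed catalytic subunits (right, bars are mean ± SD), at 0 h, 5 h and 12 h. Points are libraries and lines join means. NFATC1 had 12.5% at 0 h, 27.3% at 5 h and 12.4% at 12 h, and the RCAN1 ratio was 0.193 at 0 h, 0.0891 at 5 h and 0.0898 at 12 h.

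The mRNAs with the most similar courses were sought for NFATC1, NFAT5 and PPP3CA, the 3 with a called change of at least 2-fold. Likeness was the root mean square difference in log2 CPM over the 9 libraries, each gene centred on its own mean, among 10353 genes with an average of at least 5 CPM. Nearest to NFATC1 were CD83, a surface glycoprotein of activated lymphocytes (difference 0.135), the interferon regulatory factor IRF1 (0.155) and ZDBF2, an imprinted zinc-finger gene (0.161), where the median over all genes was 0.695. CD83 had 79.2 ± 4.72 CPM at 0 h, 227 ± 6.90 at 5 h and 96.1 ± 7.97 at 12 h (SD, n = 3). Nearest to PPP3CA were the nucleolar RNA helicase DDX21 (0.119), AGFG1, an Arf GTPase-activating protein family member (0.146), and ODC1, the rate-limiting enzyme of polyamine synthesis (0.153), with a median of 0.563 over all genes. ODC1 had 201 ± 12.2 CPM at 0 h, 407 ± 17.0 at 5 h and 216 ± 6.51 at 12 h. Nearest to NFAT5 were JAZF1 (0.0914), the mitochondrial carboxylase subunit MCCC2 (0.112) and the mitochondrial lipid kinase AGK (0.114), with a median of 0.585. AGK had 56.8 ± 8.25 CPM at 0 h, 137 ± 6.41 at 5 h and 134 ± 4.27 at 12 h.

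Other genes of the pathway were read from 8 lists. A rule on size picked 51 gene and comparison pairs from them, of which 36 kept their call with each library left out in turn, and only these are named as changed. The counts given for each list take in every call, including calls lost with 1 library left out. Of the other paralogs, RCAN3, a calcineurin regulator like RCAN1, fell as well, with 26.7 ± 0.641 CPM at 5 h and 45.7 ± 6.88 at 0 h (log2 -0.77, adjusted p = 3.69e-05), and 29.8 ± 3.48 CPM at 12 h (log2 -0.63, adjusted p = 0.000295). NFATC4 averaged 2.91 CPM at 5 h and 4.4 CPM at 0 h (log2 -0.61, adjusted p = 0.0765), and RCAN2 and PPP3R2, the testis form of the B subunit, had at most 2 counts in a library and were not tested. Of 10 genes listed for calcineurin binding, 0 rose and 4 fell at 5 h, and again 0 rose and 4 fell at 12 h. Their median log2 fold changes were -0.17 and -0.31. The list is a broad one that also takes in PPIA, FKBP1A, HOMER2 and HOMER3, whose binding to calcineurin was not examined here. Among all tested genes, 24.9% were higher and 24.8% lower at 5 h, and 26.3% and 24.8% at 12 h. With 1 library left out, 3 to 4 of the 10 were called at each time. The calmodulin gene CALM3 had 212 ± 14.8 CPM at 5 h and 308 ± 34.1 CPM at 0 h (log2 -0.54, adjusted p = 0.000426). CALM2 fell at 12 h (log2 -0.48), and AKAP5, a scaffold that anchors calcineurin, fell at 5 h (log2 -0.59).

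Of 11 tested kinases that phosphorylate NFAT, 3 rose and 3 fell at 5 h, and 3 rose and 2 fell at 12 h. These counts are near the shares of all genes, 24.9% higher and 24.8% lower at 5 h and 26.3% and 24.8% at 12 h. At 5 h the count was 3 and 0 without 0 h replicate 2 and 2 and 1 without 5 h replicate 3, and at 12 h it was 3 and 0 without 0 h replicate 1 or 12 h replicate 2. The casein kinase gene CSNK1A1 had 343 ± 25.7 CPM at 5 h and 245 ± 21.4 CPM at 0 h (log2 0.48, adjusted p = 0.000187), and rose at 12 h too (log2 0.41). MAPK8, which encodes JNK1, rose at 5 h (log2 0.44) and DYRK1B at 12 h (log2 0.69). Of 6 tested genes of nuclear transport and the NRON complex, which holds phosphorylated NFAT in the cytoplasm, 1 rose and 3 fell at 5 h, and 1 rose and 4 fell at 12 h. The shares of all genes given above for the kinases apply here too. PSMD11, the gene that rose, lost its 12 h call in 3 of 6 fits with 1 library left out, and XPO1 in 1. At 12 h the nuclear export factor gene CSE1L had 124 ± 20.4 CPM against 239 ± 21.1 CPM at 0 h (log2 -0.95) and the importin gene KPNB1 fell as well (log2 -0.47). At 5 h IQGAP1 (log2 -0.47), the exportin gene XPO1 (-0.34) and KPNB1 (-0.28) fell, and the proteasome subunit gene PSMD11 (0.43) rose.

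Among 13 tested genes tied to CABIN1 or to the MEF2 factors it represses, 3 rose and 3 fell at 5 h. That was near the 24.9% and 24.8% of all genes. At 12 h 5 rose and 2 fell, against 26.3% and 24.8%. HIRA, the histone chaperone whose complex contains CABIN1, had 76.0 ± 2.66 CPM at 5 h and 161 ± 6.40 CPM at 0 h (log2 -1.08, adjusted p = 2.74e-09), and 68.7 ± 5.72 CPM at 12 h (log2 -1.22, adjusted p = 6.70e-10). Its complex partner UBN1 fell at 5 h (log2 -0.33). The class IIa histone deacetylases, which bind MEF2 factors, split: HDAC7 was at 321 ± 36.2 CPM at 12 h against 129 ± 4.96 CPM at 0 h (log2 1.32) and had risen at 5 h (log2 0.94), HDAC9 rose at 12 h (log2 0.98), and HDAC4 fell at 12 h (log2 -0.98). MEF2D rose at 5 h (log2 0.48). Of 6 other calcineurin substrates, 1 rose at 5 h and 2 at 12 h. The count at 5 h was 0 without 0 h replicate 1, 2 or 3 or 5 h replicate 1 or 3, without the low-count filter, in DESeq2 and in limma. That at 12 h was 1 without 0 h replicate 3 or 12 h replicate 2, without the filter and in the fit of those times alone. The CREB coactivator gene CRTC2 rose at 12 h, with 53.0 ± 1.74 CPM against 39.5 ± 3.22 CPM at 0 h (log2 0.42).

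Among 22 genes known as NFAT targets in T cells, 18 were tested, and 18 rose and 0 fell at 5 h (median log2 6.65). Of all tested genes, 24.9% were called higher and 24.8% lower at 5 h. Several on the list, IL2, IL3, CSF2, IFNG, FASLG, IL2RA and XCL1, had 0 to 3 counts over the 0 h libraries. They passed the low-count filter through the later times. NR4A3 (1.19 CPM), TNF (0.778), EGR2 and TNFRSF9 (0.401 each) and IRF4 (0.207) also had low means at 0 h and may have passed in the same way. Such genes could hardly be called lower at 5 h, so the count and median are a description. Without the filter 17 of the 22 rose at 5 h, with a median of 5.02, and 14 rose and 2 fell at 12 h, with a median of 3.45. At 12 h 14 rose and 2 fell against 0 h (median 4.17), and 0 were higher and 17 lower at 12 h than at 5 h (median -2.54). The medians of 6.65 and 4.17 against 0 h were the same with genes lacking a 0 h count at their bound. In limma, on a table limited to genes with a count in every library, 9 rose and 0 fell at 5 h and 7 rose and 3 fell at 12 h. The list holds well-known activation genes and was drawn up with results of these data known, so its direction is not independent evidence. IL2RA had no count at 0 h and was at least 2560-fold higher at 5 h and at least 2270-fold higher at 12 h, bounds taken against 3 counts over the 0 h group. XCL1, with 3 counts at 0 h, had a ratio of 3660 at 5 h (95% counting interval 1250 to 17800) and 1820 at 12 h (624 to 8850), and its reads may be shared with the near-identical XCL2. All 3 counts lay in 0 h replicate 3, and the fitted log2 change of XCL1 at 5 h was 11.65 with that library and 14.69 without it, a value that then depends on the prior count of the fit. LTA, a member of the tumour necrosis factor family, rose at 5 h (log2 1.10). The cytokine gene IL13 was lower at 12 h, with 0.285 ± 0.180 CPM against 1.87 ± 0.494 CPM at 0 h (log2 -2.82). The size of that fall rests on few counts, as the 12 h mean is below the level of 3 counts in each 12 h library (0.327 to 0.732 CPM). Of 6 tested osmotic target genes of NFAT5, 2 rose and 1 fell at 5 h, and 3 rose and 0 fell at 12 h, with medians of -0.07 and 0.18, and without the low-count filter 3 rose and 2 fell at 5 h. The main counts stand against 24.9% of all tested genes higher and 24.8% lower at 5 h, and 26.3% and 24.8% at 12 h. HSPA4L at 5 h and SLC5A3 at 12 h each lost their call with 1 library left out. The kinase gene SGK1 had 88.6 ± 10.4 CPM at 5 h and 7.75 ± 0.160 CPM at 0 h (log2 3.51, adjusted p = 3.83e-15) and 40.5 ± 1.60 CPM at 12 h (log2 2.38). The taurine transporter gene SLC6A6 rose at both times (log2 0.46 and 0.63).

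**Figure D5:**
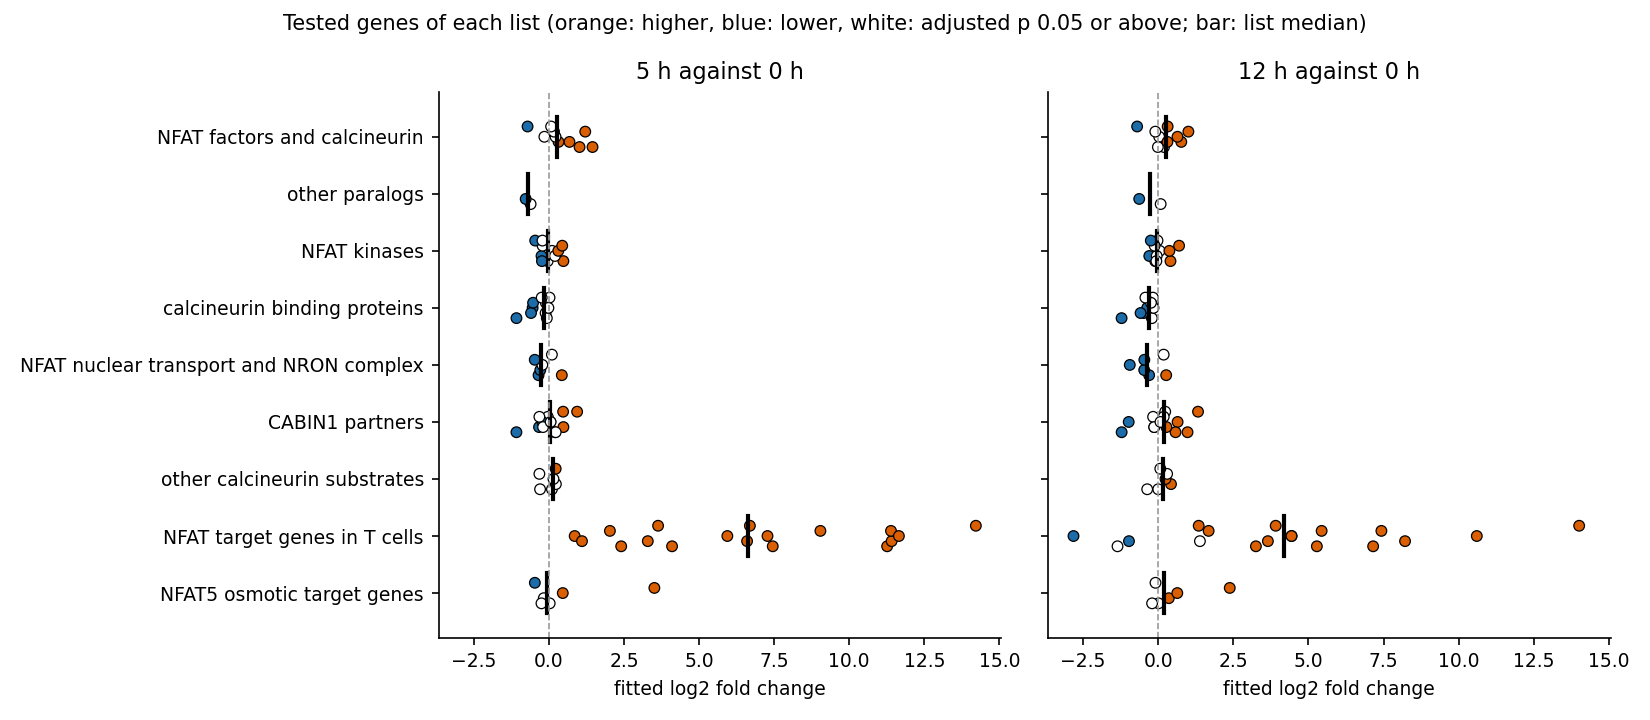
Fitted log2 fold changes of the tested genes in each list at 5 h against 0 h (left) and 12 h against 0 h (right); each point is a gene, colour marks a call, and the black bar is the list median. NFAT target genes lie far to the right, with medians of 6.65 and 4.17, although the position of genes without a 0 h count depends on the fit's prior, while the NFAT and calcineurin mRNAs lie between -0.71 and 1.45 at 5 h.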

How the data were processed

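mRNA was measured in 9 Jurkat libraries (RealSeq kits, per the labels' protocols). The authors deposited whole-number counts per Ensembl gene, and log2 values, which match log2(scaled count + 1) with a single scaling factor in each library (largest deviation 5.15e-14), for the 12692 genes with a count in every library. The submitters' processing notes name cutadapt, RSEM, DESeq2 and GRCh38.p13, with no role. Annotation release and strand use: not given in the sources used here. The counting intervals of count ratios, and the floors used for bounds, cover counting error only. The intervals of log2 fold changes come from the edgeR fit and also take in the spread between replicates.

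The test on counts was that of edgeR 4.0.16, run in R 4.3.3 (TMM, filterByExpr, 1 quasi-likelihood fit of 9 libraries, Benjamini-Hochberg adjustment over all tested genes, threshold 0.05), after a test on simulated data. The labels do not say whether replicates are separate cultures, so p-values may measure technical spread. Replicates of a group differed by more than sampling noise (chi-square over degrees of freedom 2.95 to 9.39). Alternatives were other size factors, no filter, the DESeq2 1.42.0 Wald test, 2-group fits, a replicate block, limma 3.58.1 on the log2 values, and each library left out. Coordinates and lengths came from GENCODE 29 (GRCh38). Named genes of a list were the called ones with the 2 highest and 2 lowest changes against 0 h. A gene that this rule picked is not reported here. The genes and lists were chosen with earlier results of these data known.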

Additional observations from a re-analysis of the deposited data

Results flagged for a closer look

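5 of the 10 mRNAs changed from 0 h by a different amount at 12 h than at 5 h, which the test of 12 h against 5 h compares directly (edgeR quasi-likelihood test, adjusted over all genes, 3 libraries per time). The difference of the log2 changes, 12 h minus 5 h, was -1.26 for NFATC1 (adjusted p = 1.23e-08), -1.03 for PPP3CA (1.93e-05), -0.27 for PPP3R1 (0.0321), 0.42 for PPP3CC (0.0118) and 0.24 for CABIN1 (0.0378). All tested genes passed this test at a rate of 36.1%.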

How the results depend on the processing

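The counts of mRNAs called among the 10 were 6 at 5 h and 6 at 12 h against 0 h under every full-sample alternative. The count at 12 h against 5 h was 4 without the low-count filter, where CABIN1 missed the threshold (adjusted p = 0.0542), and 5 otherwise. With 1 library left out the counts were 6 at 5 h, 6 to 7 at 12 h against 0 h, and 3 to 5 at 12 h against 5 h. The replicate block left these counts at 6, 6 and 5, and calls over all genes at 5981, 6176 and 4285, where the fit without it had 5985, 6145 and 4340. Same-numbered libraries of different times correlated at -0.143 to 0.163 in their deviations from group means, with 2 of 9 pairs over 0.1. Differently numbered ones correlated at -0.2 to 0.187, with 6 of 18 pairs over 0.1. The numbers were therefore not taken as pairs.

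Some of the changes that never passed the test reversed sign. PPP3CA at 12 h against 0 h was 0.006 with the replicate block, 0.014 in limma and -0.103 to 0.158 with 1 library left out. RCAN1 at 12 h against 5 h was -0.001 in limma and -0.067 to 0.111, PPP3CB at 12 h against 5 h -0.051 to 0.036, and NFATC3 at 12 h against 0 h -0.06 to 0.096. The NFATC1 share at 12 h against 0 h was 0.16 percentage points on the longest-transcript scale and -0.842 to 0.404 with 1 library left out. The RCAN1 ratio at 12 h against 5 h was -0.00166 and -0.00332 to 0.00611. The cause was not tested. Exact tests of 3 against 3 libraries cannot pass 0.05, so their p-values say nothing about stability. At the lowest depth (4222258 counts, 12 h replicate 1), PPP3CA rested on 69 counts.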
